A study of Ginkgo biloba with 2 samples.

Results

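The 43 sequences described here are the small RNA machinery of *Ginkgo biloba*, out of 64515 reference sequences with reads. They are all those whose closest protein match in nr (the non-redundant protein collection) is described as argonaute (or AGO with a number), dicer, RNA-dependent RNA polymerase, HUA enhancer 1 or HEN1, SERRATE or suppressor of gene silencing. Argonaute took 12 sequences, dicer 11, RNA-dependent RNA polymerase 11, suppressor of gene silencing 6 and SERRATE 3. The HEN1 patterns matched no sequence. The rule used words only and no expression value. The types below, such as Dicer 3 or argonaute 7, repeat the number in the hit's description and are homologies, not proven gene identities. Of the 43 hits, 4 came from spruce, 1 from the moss Physcomitrella and the rest from flowering plants.

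Plants silence genes with small RNAs, and a few protein families do most of the work. Dicer ribonucleases cut double-stranded RNA into small RNAs, RNA-dependent RNA polymerases make double-stranded RNA from a single-stranded template, and argonautes bind the small RNA and act on the transcripts or chromatin that it pairs with. In flowering plants these proteins set organ polarity, keep the shoot meristem, restrain viruses and guide DNA methylation to transposons, and they act in the ovule as well as in the leaf.

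Transcripts were sequenced from mature ovules and from fully expanded leaves of female trees, both collected in April 2012. Each tissue gave 1 library; how many trees stand behind it, and whether they were pooled, is not stated in the labels. There are therefore no replicates and no tests: every difference below is one between these 2 libraries, and the interval beside a fold is an exact Clopper-Pearson 95% interval that covers counting error only. The ovule library held 4.58 M (× 1000000) uniquely mapped reads and the leaf library 4.25 M.

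A few whole-library values bear on what follows. A sequence passed the filter at an RPKM (reads per kilobase and per 1000000 mapped reads) of at least 1 in 1 or both libraries, and was called higher in a tissue where the ratio of RPKM + 0.5 was at least 2-fold. Among the 56768 sequences past the filter, ovule was called higher for 27.3% and leaf for 35.1%; among the 31357 with a best hit the shares were 30.9% for ovule and 24.4% for leaf. The tissue labels were checked with marker lists. Leaf markers (antenna proteins, rubisco activase and plastocyanin) were called higher in ovule for 1 and higher in leaf for 14 of 26 sequences, with summed levels of 894 RPM (reads per 1000000 mapped reads) in ovule and 2774 RPM in leaf. Markers of dividing cells (replication proteins, core histones, B-type cyclins) were called higher in ovule for 24 and higher in leaf for 3 of 31, with 1729 RPM in ovule and 157 in leaf, and 11 of the list's 33 sequences had no leaf reads. Reproductive markers (MADS-box and AINTEGUMENTA factors) were split by number, 13 higher in ovule and 11 higher in leaf of 26, with 431 RPM in ovule and 42.9 in leaf. How far the share of dividing cells bears on the values below was not tested. In whole tissue, fewer cells that express a gene and less RNA per cell cannot be told apart.

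The machinery as a whole was present at similar, low levels in both tissues, and single members differed. The 43 sequences had 2666 reads in ovule, 0.0582% of that library, and 2211 in leaf, 0.0521%. Among the 4 most-read members the largest difference was in an argonaute described as Zwille-like, which was 6.63-fold higher in ovule, and all 3 sequences described as Dicer 3 were also higher there. Against these, the most-read sequences for Dicer 1, for RNA-dependent RNA polymerase and for SGS3 were close to level or moderately higher in leaf. Reads lay on few sequences: the 4 most-read members held 72.8% of the members' ovule reads and 75.4% of their leaf reads, while 22 members had under 10 reads in each library.

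**Figure D1:**
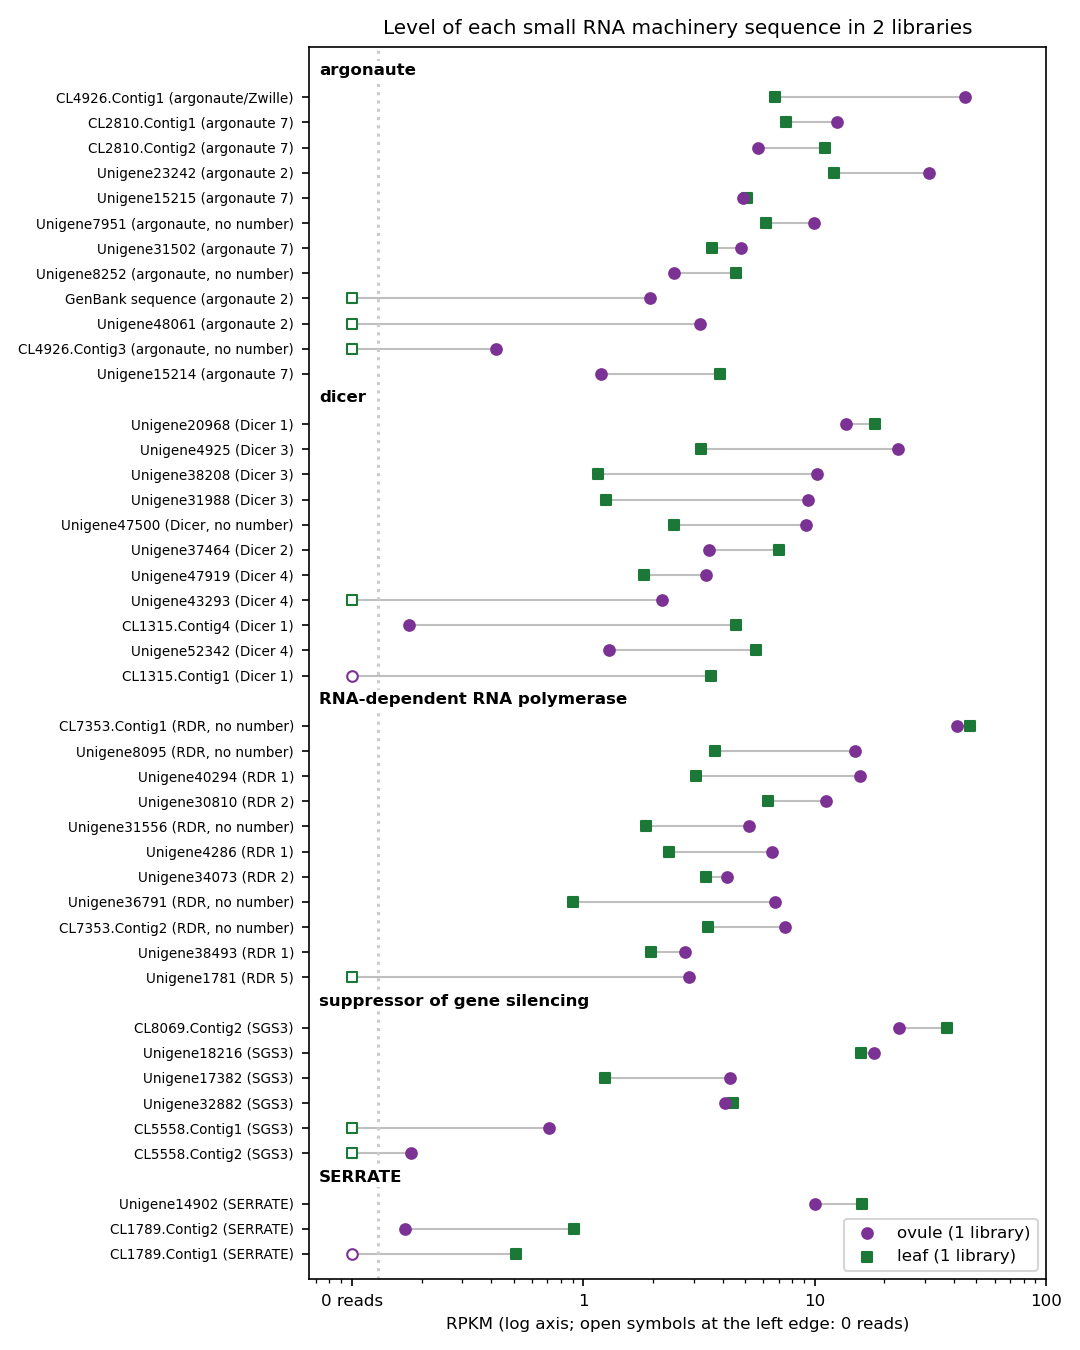
RPKM of each of the 43 sequences in the ovule library (circles) and the leaf library (squares) on a log axis, grouped by family, with open symbols at the left edge for 0 reads. The Zwille-like argonaute CL4926.Contig1 lies at 44.8 in ovule and 6.75 in leaf, whereas the polymerase CL7353.Contig1 lies at 41.3 in ovule and 47.0 in leaf.

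By number, the members leaned to ovule under the 2-fold call, and how far it stood above the background depended on the rule. Of the 43, 38 passed the filter. Of these, 17 (44.7%, background 27.3%, or 30.9% with a best hit) were called higher in ovule. Another 4 (10.5%, background 35.1%, or 24.4% with a best hit) were called higher in leaf, and 17 neither. Of the called members, 11 of the 17 and 3 of the 4 had under 20 reads over both libraries. With a counting interval that also excluded 1, 7 of 38 (18.4%) were higher in ovule, against a background of 17.3% of all sequences and 24.0% of those with a best hit. Only CL1315.Contig4, a Dicer 1 sequence, was higher in leaf under that call (2.63%, background 13.6%, or 15.3% with a best hit). An interval that excluded 1 at any size of difference put 8 members toward ovule and 6 toward leaf, where 22.1% of all sequences lay toward ovule and 16.4% toward leaf. Among the 18 members with at least 20 reads, 6 had an ovule call and 1 a leaf call, next to 33.8% (ovule) and 20.6% (leaf) of all sequences with that many reads. The share of members higher in ovule was thus near the background under the interval rule and at 20 or more reads. It stayed above the background of all sequences under the other settings that had one, which short sequences with few reads also pass. Of these settings, 2 are given here. At an RPKM of at least 5 there were 12 of 24 members against 36.2% of all sequences. At a ratio of at least 2 on the log2 scale there were 10 of 38 (26.3%) against 12.6%. Those 10 include sequences with very few reads, such as Unigene1781 with 2 in ovule and 0 in leaf. The median log2 ratio of the 38 was 0.72, against -0.10 for all sequences past the filter and 0.21 for those with a best hit, and at 20 or more reads it was 0.42 against 0.38.

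**Figure D2:**
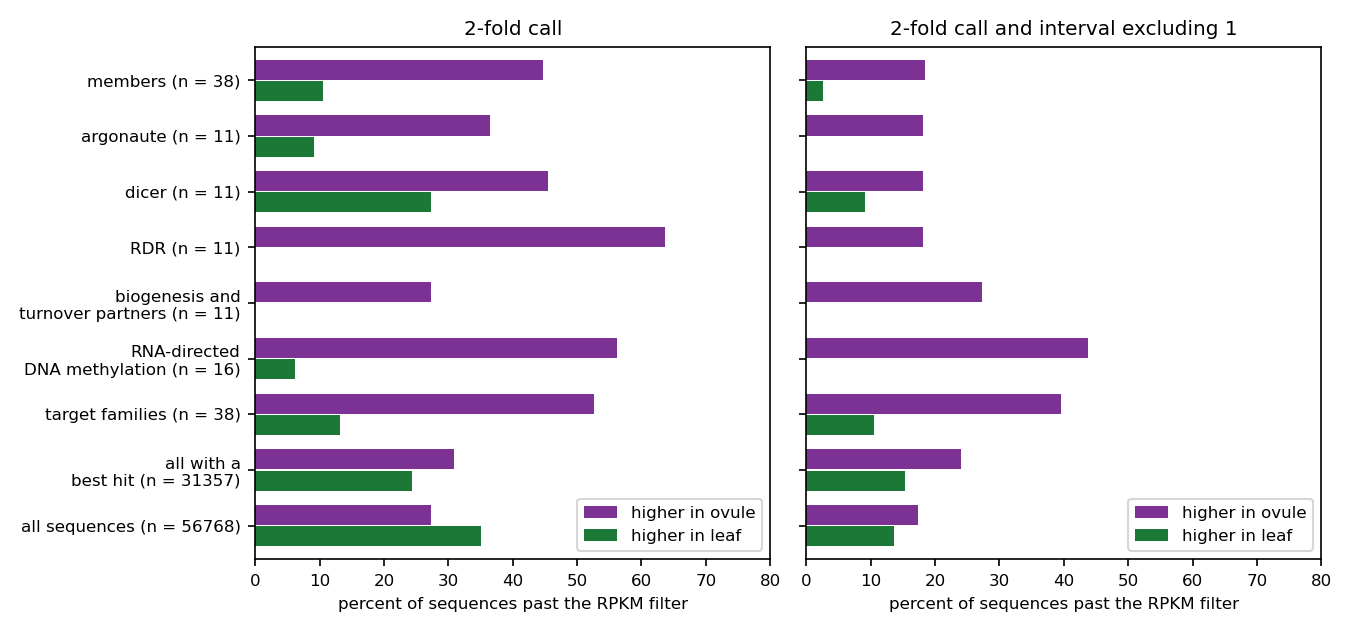
Share, in percent, of the sequences past the RPKM filter with an ovule call (purple) and with a leaf call (green), under the 2-fold call (left) and with a counting interval that also excludes 1 (right), for the members, 3 families, 3 related lists and the background. The members' ovule share is 44.7% under the first call and 18.4% under the second, where all sequences with a best hit stand at 24.0%.

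Under the 2-fold call the share of members with an ovule call differed by length, at a split of 700 bases chosen after the values were seen. The shorter members were called higher in ovule for 15 and higher in leaf for 3 of 28 (53.6% for ovule and 10.7% for leaf), where all sequences of that length with a best hit gave 34.7% for ovule and 26.1% for leaf. Of the 10 longer members past the filter, the call went to ovule for 2 and to leaf for 1, where all sequences of that length with a best hit gave 27.0% for ovule and 22.5% for leaf. With an interval that also excluded 1 the ovule shares were close, at 5 of 28 shorter members and 2 of 10 longer ones. Under that rule all sequences with a best hit gave 22.4% for ovule at the shorter length and 25.8% at the longer. The members' ovule share was below the background in both length groups. Summed reads of the short members were 376 in ovule and 178 in leaf, a 1.96-fold difference (1.63 to 2.35), next to 1.37-fold for all sequences of that length with a best hit, and those of the longer ones 2290 in ovule and 2033 in leaf, a 1.04-fold difference whose interval includes 1 (0.983 to 1.11). Several fragments can belong to 1 gene: the 43 members had 35 distinct best hits, and 16 members shared theirs with another member.

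**Figure D3:**
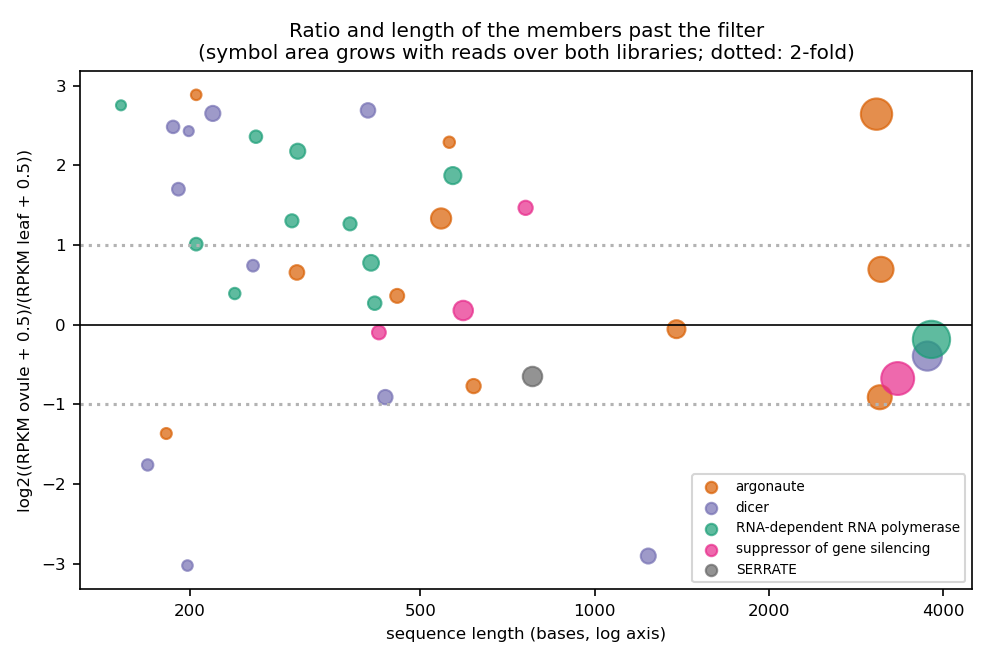
Log2 ratio of RPKM + 0.5, ovule over leaf, of the 38 members past the filter against their length in bases (log axis), coloured by family, with symbol area growing with reads. Most short, small symbols lie above 0, and the largest symbols, on the longest sequences, lie within 1 of 0 except the Zwille-like argonaute at 2.64.

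Dicer 1, which cuts microRNA hairpin precursors with the help of the zinc-finger protein SERRATE, was modestly higher in leaf in its main sequence. The main Dicer 1 sequence, Unigene20968 (3757 bases, 76.10% covered in ovule and 75.89% in leaf), had 236 reads in ovule and 290 in leaf, that is 13.7 RPKM in ovule and 18.2 RPKM in leaf. It was 1.33-fold higher in leaf (1.11 to 1.58), less than the 2-fold call asks. A shorter sequence with the same grape Dicer 1 as best hit, CL1315.Contig4 (1238 bases), had 1 ovule read and 24 leaf reads and was 25.9-fold higher in leaf (4.22 to 1065). Its leaf reads covered 41.11% of it and the single ovule read 3.96%. CL1315.Contig1, another Dicer 1 fragment, of 198 bases, had 0 ovule and 3 leaf reads. Both Dicer 1 sequences with 20 or more reads thus pointed to leaf, by very different amounts. Over all 3, the reads were 237 in ovule and 317 in leaf, which makes leaf 1.44-fold higher (1.22 to 1.72).

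SERRATE pointed the same way. Unigene14902 had 36 reads in ovule and 53 in leaf, a level of 7.86 RPM in ovule and 12.5 in leaf, and was 1.59-fold higher in leaf with an interval that barely excludes 1 (1.02 to 2.50). CL1789.Contig2 had 1 ovule and 5 leaf reads and CL1789.Contig1 had 0 ovule and 3 leaf reads, and neither passed the filter.

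Dicer 3, which in Arabidopsis makes the siRNAs that guide DNA methylation, went the other way. Unigene4925 had 23 ovule reads and 3 leaf reads (RPKM 22.9 in ovule and 3.23 in leaf), that is, a 7.10-fold difference (2.15 to 37.0). Unigene38208 had 19 ovule and 2 leaf reads (RPKM 10.2 in ovule and 1.16 in leaf), that is, an 8.80-fold difference (2.12 to 77.9), and Unigene31988 had 8 ovule reads and 1 leaf read, that is, a 7.41-fold difference whose interval includes 1 (0.994 to 329). All 3 were called higher in ovule and differed from each other by less than their counting error. They are fragments of 187 to 406 bases, and Unigene4925 and Unigene38208 share a best hit, so they need not be separate genes. Their identity is less secure than that of the main Dicer 1 sequence. The match's E value (lower is closer) was 1.9e-09 for Unigene4925, 2.6e-06 for Unigene31988 and 2.8e-40 for Unigene38208, against 0 for Unigene20968. Summed reads of the 3 Dicer 3 fragments were 50 in ovule and 6 in leaf, a 7.72-fold difference (3.31 to 22.0). This interval does not overlap that of the Dicer 1 sum, which was 0.693 on the same ovule-over-leaf scale (0.583 to 0.822).

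The remaining dicers were too thinly read to place. Dicer 2, linked to defence against viruses, was represented by Unigene37464. It had 7 ovule and 13 leaf reads, too few to show a difference (ovule over leaf 0.499, 0.169 to 1.35). Dicer 4, which makes trans-acting siRNAs in Arabidopsis, had 7 ovule and 6 leaf reads over 3 fragments: Unigene47919 had 4 in ovule and 2 in leaf, Unigene43293 had 2 in ovule and 0 in leaf, and Unigene52342 had 1 in ovule and 4 in leaf. Unigene47500, whose hit is an unnumbered moss dicer, had 8 in ovule and 2 in leaf. Over the whole family the reads were 309 in ovule and 344 in leaf, which makes leaf 1.20-fold higher (1.03 to 1.41), and without Unigene20968 they were 73 in ovule and 54 in leaf, a 1.25-fold difference toward ovule with an interval that includes 1 (0.869 to 1.82). The family sum therefore takes its direction from the 1 abundant Dicer 1 sequence.

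**Figure D4:**
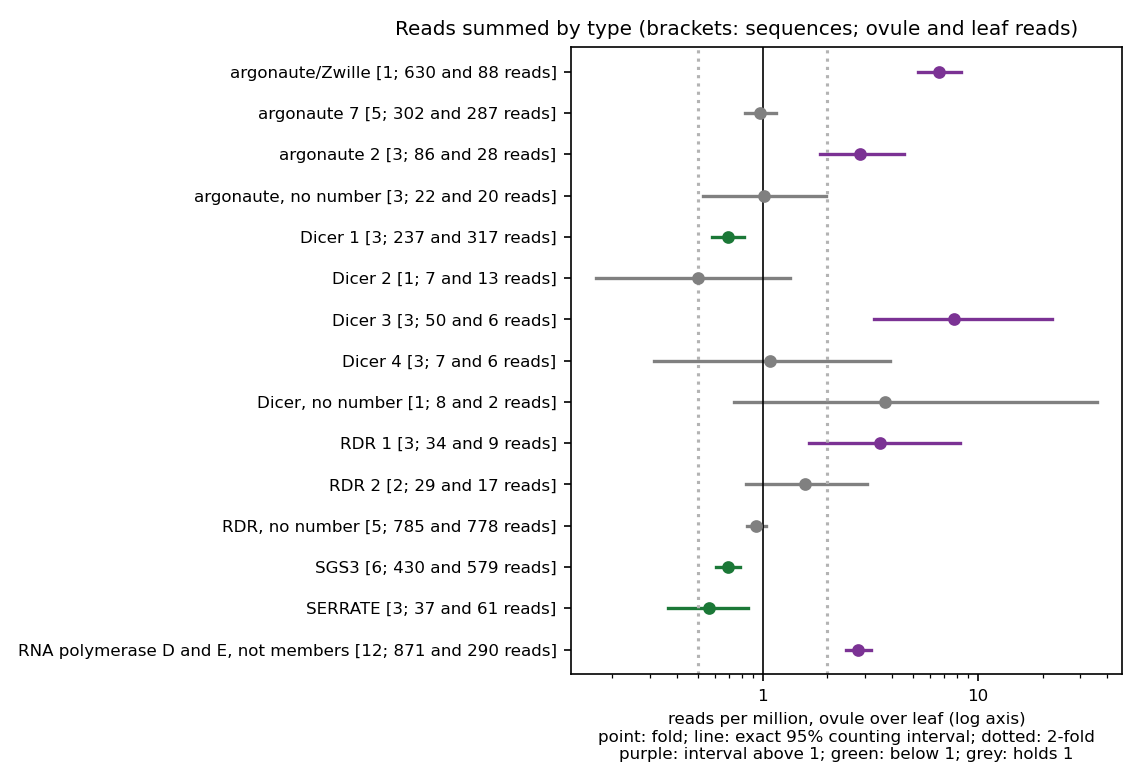
Fold of summed RPM, ovule over leaf (log axis), for each type named in the hits' descriptions and for RNA polymerase D and E subunits, with exact 95% counting intervals. Dicer 3 lies at 7.72 and Dicer 1 at 0.693, and the argonaute types lie between 0.975 and 6.63.

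RNA-dependent RNA polymerases split between 1 abundant sequence and many small ones. CL7353.Contig1, a 3819-base sequence whose hit is an unnumbered poplar polymerase, was the most-read member. It had 722 ovule and 762 leaf reads, 41.3 RPKM in ovule and 47.0 RPKM in leaf, and was 1.14-fold higher in leaf (1.03 to 1.26). Reads covered 97.96% of its bases in ovule and 95.26% in leaf. The other 10 polymerase sequences, all under 700 bases, had more RPM in ovule. So did 28601 of all 64515 sequences and 9471 of the 17902 under 700 bases with a best hit. Of the 10, 7 had under 20 reads and 8 had an interval that includes 1. Their sum was 128 ovule and 42 leaf reads, 2.82-fold higher in ovule (1.98 to 4.10), and it stood at 2.87 (1.99 to 4.24) when CL7353.Contig2, a 205-base sequence with 7 ovule and 3 leaf reads, was also left out. With all 11 the sum was 850 ovule and 804 leaf reads, level within counting error (0.980, 0.888 to 1.08).

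Among the 10 small polymerase sequences, 2 had a 2-fold call with an interval above 1. All sequences under 700 bases with a best hit gave 22.4% for ovule under that rule, so 2 of 10 was not above the background. Unigene8095, described only as putative, had 39 ovule and 9 leaf reads (RPKM 15.0 in ovule and 3.73 in leaf), that is, a 4.02-fold difference (1.91 to 9.43), and was covered to 97.19% in ovule and 53.78% in leaf. Unigene40294, similar to polymerase 1, which is induced by salicylic acid and acts against viruses in flowering plants, had 22 ovule and 4 leaf reads (RPKM 15.6 in ovule and 3.07 in leaf), that is, a 5.10-fold difference (1.73 to 20.3). The 3 polymerase 1 sequences, with Unigene4286 at 9 ovule and 3 leaf reads and Unigene38493 at 3 ovule and 2 leaf reads, were together 3.50-fold higher in ovule (1.64 to 8.30). Polymerase 2 is the partner of Dicer 3 in the methylation branch in Arabidopsis. Its sequences Unigene30810 (21 ovule and 11 leaf reads) and Unigene34073 (8 ovule and 6 leaf reads), which share a grape hit, summed to 29 ovule and 17 leaf reads, that is, a 1.58-fold difference with an interval that includes 1 (0.840 to 3.07). The remaining 3 had few reads, 9 ovule and 3 leaf reads for Unigene31556, 8 ovule reads and 1 leaf read for Unigene36791 and 2 ovule and 0 leaf reads for Unigene1781, which is similar to polymerase 5.

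SGS3, which protects the template RNA that polymerase 6 copies in Arabidopsis, was higher in leaf in its main sequence. CL8069.Contig2 (3339 bases, 94.16% covered in ovule and 94.13% in leaf) had 353 ovule and 527 leaf reads, 23.1 RPKM in ovule and 37.2 RPKM in leaf, and was 1.61-fold higher in leaf (1.41 to 1.85), below the 2-fold call. Unigene18216 had 49 ovule and 40 leaf reads (ovule over leaf 1.14, 0.732 to 1.77) and Unigene32882 had 8 in each (0.927, 0.303 to 2.83), both with intervals that include 1. Unigene17382 was called higher in ovule, with 15 ovule and 4 leaf reads, that is, a 3.47-fold difference (1.11 to 14.4). The spruce-like contigs CL5558.Contig1 and CL5558.Contig2, with 4 and 1 ovule reads and none in leaf, did not pass the filter. Over all 6 the reads were 430 in ovule and 579 in leaf, which makes leaf 1.45-fold higher (1.28 to 1.65), and without CL8069.Contig2 they were 77 in ovule and 52 in leaf, a 1.37-fold difference toward ovule with an interval that includes 1 (0.953 to 1.99). No description named polymerase 6 itself.

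Argonautes, the effectors, were on balance higher in ovule, and a single sequence carried the difference. CL4926.Contig1 (3069 bases) is similar to the spruce argonaute/Zwille; Zwille, also called Pinhead or argonaute 10, keeps the shoot meristem in Arabidopsis. It had 630 ovule and 88 leaf reads, 44.8 RPKM in ovule and 6.75 RPKM in leaf, and was 6.63-fold higher in ovule (5.30 to 8.39). The leaf reads still covered 67.61% of its bases, against 77.55% in ovule. In ovule this argonaute had the highest RPKM of the 43 sequences, and in leaf it lay well below the main polymerase, SGS3 and Dicer 1 sequences. A second contig of the same cluster, CL4926.Contig3, had 1 ovule read and none in leaf. All 12 argonautes summed to 1040 reads in ovule and 423 in leaf, which is 2.28-fold more in ovule (2.03 to 2.56), and without CL4926.Contig1 to 410 ovule and 335 leaf reads, that is, a 1.13-fold difference with an interval that includes 1 (0.979 to 1.31).

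**Figure D5:**
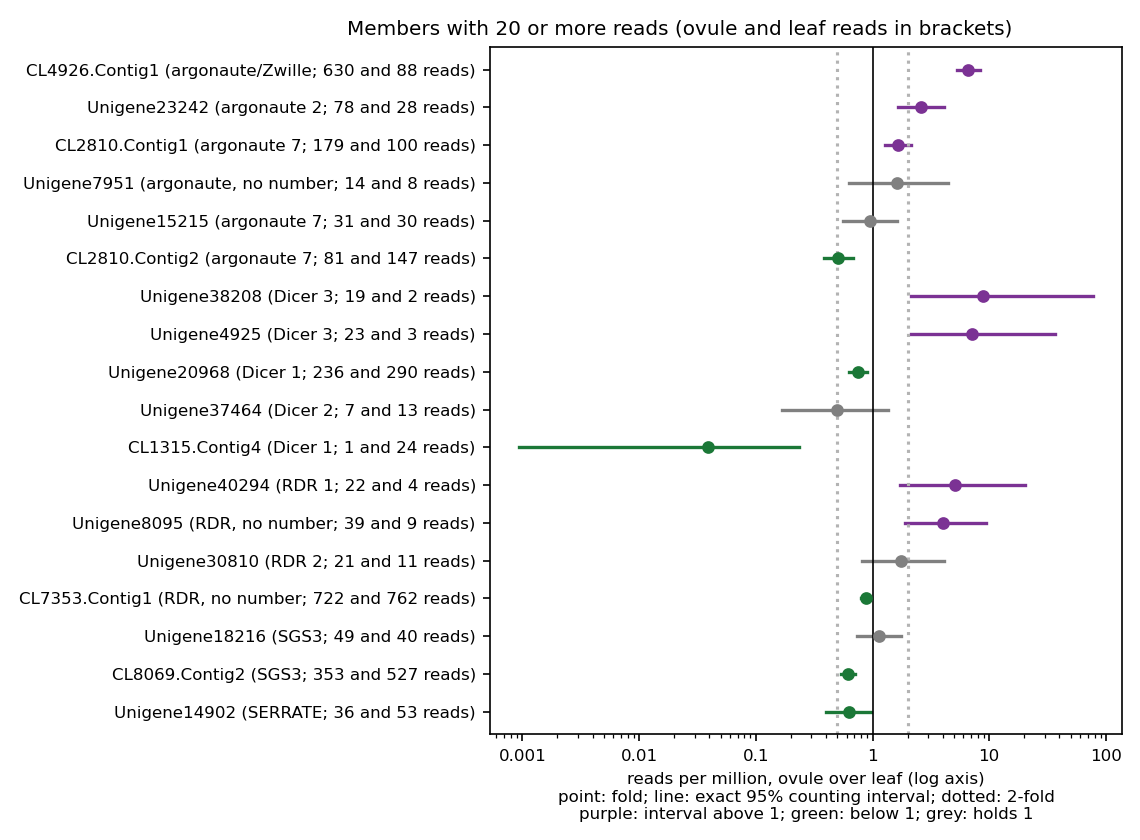
Fold of RPM, ovule over leaf (log axis), with exact 95% counting intervals, for the 18 members with at least 20 reads over both libraries. The Zwille-like CL4926.Contig1 has a narrow interval from 5.30 to 8.39, and CL1315.Contig4, with 1 ovule read, the widest, from 0.000939 to 0.237.

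Argonaute 7, which in Arabidopsis starts the trans-acting siRNA pathway of leaf polarity and phase change, was level within counting error in sum but not by contig. CL2810.Contig1 (3124 bases) had 179 ovule and 100 leaf reads, 12.5 RPKM in ovule and 7.54 RPKM in leaf, and was 1.66-fold higher in ovule (1.29 to 2.14). CL2810.Contig2 (3109 bases, same cluster and same soybean hit) had 81 ovule and 147 leaf reads, 5.69 RPKM in ovule and 11.1 RPKM in leaf, and was 1.96-fold higher in leaf (1.48 to 2.60). Their intervals lie on opposite sides of 1, and their sum, 260 ovule and 247 leaf reads, was level (0.975, 0.816 to 1.17). Coverage differed in the same way: ovule reads covered 48.82% of CL2810.Contig1 and 22.13% of CL2810.Contig2, while leaf reads covered 47.86% of the first and 58.89% of the second. Only reads mapped to 1 place were counted, so reads shared by such contigs are in neither count, and whether they are alleles, copies or splice forms cannot be told apart here. Unigene15215 had 31 ovule and 30 leaf reads (ovule over leaf 0.957, 0.561 to 1.64), Unigene31502 had 10 ovule and 7 leaf reads and Unigene15214 had 1 ovule and 3 leaf reads. The 5 argonaute 7 sequences summed to 302 ovule and 287 leaf reads (0.975, 0.827 to 1.15).

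Argonaute 2, an antiviral argonaute in Arabidopsis, was higher in ovule. Unigene23242 had 78 ovule and 28 leaf reads, 31.4 RPKM in ovule and 12.1 RPKM in leaf, and was 2.58-fold higher in ovule (1.66 to 4.13). A GenBank sequence had 5 ovule and 0 leaf reads and Unigene48061 had 3 ovule and 0 leaf reads, counts at which the interval includes 1. Over these 3 sequences ovule gave 86 reads and leaf 28, 2.85-fold more in ovule (1.84 to 4.53), so the direction rests on Unigene23242. Unnumbered argonautes had 14 ovule and 8 leaf reads (Unigene7951) and 7 ovule and 12 leaf reads (Unigene8252), and both intervals include 1. No description named argonaute 4, the class that carries methylation-guiding siRNAs in Arabidopsis.

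Other genes of the small RNA pathways were followed with 3 lists of description patterns. The first held partners in the making, export and breakdown of small RNAs. Of its 11 sequences past the filter, 3 (27.3%, background 27.3%, or 30.9% with a best hit) had an ovule call. None had a leaf call (background 35.1%, or 24.4% with a best hit), and the median log2 ratio was 0.90. With an interval excluding 1 the same 3 of 11 remained for ovule (27.3%, background 17.3%, or 24.0% with a best hit) and none for leaf (background 13.6%, or 15.3% with a best hit). An SDE3-like RNA helicase (Unigene7618), a silencing factor in Arabidopsis, had 164 ovule and 25 leaf reads, that is, a 6.08-fold difference (3.97 to 9.67). The large subunit of the nuclear cap-binding complex (Unigene5479), which takes part in microRNA processing, had 630 ovule and 177 leaf reads, that is, a 3.30-fold difference (2.79 to 3.92). The RNA-binding protein 1 that partners Dicer 1 (Unigene15480) had 484 ovule and 234 leaf reads and was 1.92-fold higher in ovule (1.64 to 2.25), and HASTY, an export factor (Unigene15879), had 31 ovule and 29 leaf reads (ovule over leaf 0.990, 0.577 to 1.70). Dicer 1 and its listed partners thus did not point one way. The list's most-read sequence, an exoribonuclease 3 (CL6681.Contig1) with 1601 ovule and 2784 leaf reads, stood at 0.533 ovule over leaf (0.501 to 0.567) and turned the sum of the whole list toward leaf, at 3516 ovule and 3565 leaf reads. CL6681.Contig2, of the same cluster and description, went the other way with 242 ovule and 108 leaf reads, 2.08-fold toward ovule (1.65 to 2.63). Without CL6681.Contig1 the list's 4 other exoribonuclease sequences summed to 339 ovule and 180 leaf reads, 1.745-fold toward ovule (1.45 to 2.10).

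The second list, RNA-directed DNA methylation, had 9 of 16 sequences (56.2%, background 27.3%, or 30.9% with a best hit) with an ovule call. A leaf call went to 1 (6.25%, background 35.1%, or 24.4% with a best hit), and the median log2 ratio was 1.302. With an interval excluding 1, 7 (43.8%, background 17.3%, or 24.0% with a best hit) were higher in ovule. None was higher in leaf under that rule (background 13.6%, or 15.3% with a best hit). Subunits of RNA polymerases D and E, the plant-specific enzymes Pol IV and Pol V that make the RNA for this pathway, carried the list. Their 12 sequences summed to 871 ovule and 290 leaf reads, a difference of 2.78-fold toward ovule (2.43 to 3.19). All 12 were described as subunit 1 or NRPD1b and were 164 to 2075 bases long. They need not be separate genes, so the share of calls can count 1 gene several times. Unigene104, an E subunit with 245 ovule and 89 leaf reads, was 2.55-fold higher (1.99 to 3.29), Unigene21586, a D subunit with 183 ovule and 65 leaf reads, was 2.61-fold higher (1.96 to 3.52), and Unigene4768, an E subunit with 31 ovule and 6 leaf reads, was 4.79-fold higher (1.97 to 14.0). The single DRM2-like methyltransferase (Unigene37331) had 20 ovule and 4 leaf reads, that is, a 4.63-fold difference (1.55 to 18.6). The 4 SUVH histone methyltransferases on the list differed less, with 1985 ovule and 1228 leaf reads, 1.498-fold higher in ovule (1.39 to 1.61), and none was called higher in ovule. The list's leaf call was the histone methyltransferase Unigene38589, which had 0 ovule reads and 1 leaf read. As for Dicer 3, the sequences of this list with a call and an interval excluding 1 all lay toward ovule. Polymerase 2, a member of the same branch, had no call, and the interval of its sum included 1. Most markers of dividing cells listed above were also called higher in ovule, and the part of dividing cells in these values was not tested.

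The third list held families that conserved plant microRNAs or trans-acting siRNAs are known to target. Of its 38 sequences past the filter, 20 (52.6%, background 27.3%, or 30.9% with a best hit) had an ovule call. A leaf call went to 5 (13.2%, background 35.1%, or 24.4% with a best hit). With an interval excluding 1, 15 (39.5%, background 17.3%, or 24.0% with a best hit) were higher in ovule. Under that rule 4 (10.5%, background 13.6%, or 15.3% with a best hit) were higher in leaf. The median log2 ratio was 1.02. Squamosa promoter-binding-like factors, all described as 12-like or 14-like, were 3.22-fold higher in ovule over 4 sequences (2.96 to 3.50). Among them, Unigene26274 had 700 ovule and 84 leaf reads. A GAMYB-like factor (Unigene13163) had 103 ovule and 16 leaf reads, that is, a 5.96-fold difference (3.50 to 10.8), and the TCP4-like Unigene24292, the list's most-read sequence, had 2747 ovule and 1449 leaf reads, 1.76-fold higher (1.65 to 1.87). Auxin response factors went both ways, 5 higher in ovule (33.3%) and 4 higher in leaf (26.7%) of 15. Both shares were near those of sequences with a best hit, 30.9% and 24.4%. Those described as factor 10/16/17 or 18 were together 3.15-fold higher in leaf (2.496 to 4.004), with Unigene18330 at 27 ovule and 138 leaf reads. Of 12 scarecrow-like sequences, 7 (58.3%, background 27.3%, or 30.9% with a best hit) were called higher in ovule. The squamosa, auxin response factor and scarecrow-like sequences on this list include branches that are not known small RNA targets. Small RNAs were not measured, and what acts on these transcripts was not tested.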

How the data were processed

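For every reference sequence the tables deposited by the authors give, per the file headers, a count of uniquely mapped reads, the length, the percent of bases covered, an RPKM, gene ontology terms and the closest nr match. Which assembler and aligner were used, and the BLAST threshold, is not stated in the labels or headers. The names used here leave out a suffix of the assembled identifiers, Gink_bil_leaf, which names leaf. How the origin of the reference bears on the ovule and leaf shares was not tested. Tested on the tables, counts summed to the totals in the headers, RPKM followed from counts, length and total to a relative tolerance of 1e-06, and reads were 49 bases long. A sequence listed for 1 library alone was given 0 reads in the other. On 1000 bases, the floor of 3 reads equals 0.655 RPKM for ovule and 0.707 RPKM for leaf. With 1 library per tissue no test across sequences was run. Calls and intervals were tested on simulated counts of well-read sequences only. That check does not cover the 25 members with under 20 reads over both libraries. Nor does it cover several members just above that count, among them Unigene4925, Unigene38208, Unigene40294 and CL1315.Contig4. The 700-base split was chosen after the values were seen. Alternatives changed the pseudocount, the filter, the scaling (TMM in edgeR 4.0.16, or TPM), the reference set and the call. Python 3.11.15, scipy 1.17.1 and pandas 2.3.3 were used. Members named by rule had at least 20 reads, or 10 against 0, or were among the 5 largest called folds each way with an interval excluding 1. From each related list the 2 most-read and the largest such fold each way were taken. The remaining members and list sequences in the text were added after their values were seen. The members and lists were chosen with earlier results of these data known.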

Additional observations from a re-analysis of the deposited data

How the results depend on the processing

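Depth limits most members, and the counts of 2-fold calls depend on the rule. Of 38 members, 17 were called higher in ovule (44.7%) and 4 in leaf (10.5%). At 20 or more reads there were 6 (33.3%) and 1 of 18, with an interval excluding 1 there were 7 (18.4%) and 1 of 38, for an absolute log2 ratio past 2 there were 10 (26.3%) and 2 of 38, and with RPKM summed per description, where no background was computed, 11 (47.8%) and 1 of 23. At an RPKM of at least 5 there were 12 ovule calls and 1 leaf call of 24 (background 36.2% and 23.6%). Without a filter there were 18 and 6 of 43 (background 25.6% and 33.9%). Under TMM there were 16 and 6 of 38 (background 24.8% and 37.5%) and under TPM 16 and 7 of 39 (background 24.8% and 38.4%). The background of 27.3% and 35.1% became 17.3% and 13.6% with the interval and 12.6% and 19.1% at log2 2, while its leaf share was 20.6% at 20 reads and 18.4% with empty libraries set to 3 reads. TMM and TPM moved the median of all sequences to -0.24 and -0.25, and it turned positive at an RPKM of at least 5 (0.43) and at 20 reads (0.38). The methylation list had 0 leaf calls at an RPKM of 5, at 20 reads, with 3 reads for empty libraries, with the interval and at log2 2, where it had 3 ovule calls. The targets had 3 leaf calls at an RPKM of 5 and at 20 reads, and 5 and 2 calls at log2 2. The partners had 1 leaf call without a filter, under TMM and under TPM, and 1 ovule call at log2 2. Without its most-read member, the ovule-over-leaf fold was 1.13 for argonautes, 1.25 for dicers (turned round), 2.82 for polymerases (turned round), 1.37 for SGS3 (turned round) and 0.116 for SERRATE. The argonaute fold was 2.03 under TPM, and the polymerase fold 0.881 under TMM and 0.8735 under TPM; both scalings lower every ovule-over-leaf fold. Of 36 values for single members under another scaling, 34 moved by less than their counting interval; CL7353.Contig1 stood at 0.789 under TMM and 0.783 under TPM. No paired analysis was possible because each tissue has 1 library, and no replicate could be left out.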

Other observations

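Gene ontology terms gave a wider view than the descriptions. Of the 43 members, 34 carried a process term, 15 the production of trans-acting siRNAs, 7 the production of microRNAs and 1 ovule development. Outside the members, 253 sequences carried a small RNA or RNA interference term, chosen after the results were seen. Of the 225 past the filter, 95 (42.2%, background 27.3%, or 30.9% with a best hit) were called higher in ovule. Another 20 (8.89%, background 35.1%, or 24.4% with a best hit) were called higher in leaf. The median log2 ratio was 0.79, and summed reads were 39057 in ovule and 25815 in leaf.

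Contig clusters held a few sequences beside the members that the description rule did not take. CL2810.Contig3, in the cluster of the argonaute 7 contigs, had 28 ovule and 9 leaf reads, that is, a 2.88-fold difference toward ovule (1.32 to 6.94), as for CL2810.Contig1 and unlike CL2810.Contig2. In the Dicer 1 cluster, CL1315.Contig2 had 1 ovule and 5 leaf reads and CL1315.Contig3 had 3 ovule and 7 leaf reads, both with more RPM in leaf, as for the 2 Dicer 1 contigs there, and with intervals that include 1. CL8069.Contig1, in the cluster of the main SGS3 sequence, had 17 reads in each library. CL1789.Contig4, described as a putative arsenite-resistance protein and in the cluster of the 2 thinly read SERRATE contigs, had 1 ovule and 3 leaf reads.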
